A study of Mus musculus with 8 samples.

Results

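The cytosolic ribosome and the factors that serve it were followed through the first steps of spermatogonial differentiation in the mouse. The genes were chosen by symbol alone, as those named Rpl or Rps for ribosomal proteins, Eif or Eef for initiation and elongation factors, and those for aminoacyl-tRNA synthetases, with the Rps6k kinases left out. Of 5736 genes in the expression table, 60 met this rule. They comprised 12 proteins of the small ribosomal subunit, 15 of the large subunit, 6 paralogs, copies or binding proteins, 12 initiation factors, 2 inhibitors of initiation, 2 elongation factors, 1 modifier of an elongation factor, 5 cytosolic tRNA synthetases and 5 mitochondrial tRNA synthetases. The last 5 (Vars2, Sars2, Hars2, Nars2 and Pars2) serve the mitochondrial and not the cytosolic ribosome, and Kars encodes the lysyl enzyme of both compartments.

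Bulk RNA-seq libraries were made from EGFP+ germ cells sorted by fluorescence from testes of Uchl1-eGfp mice, a C57BL/6 line outcrossed to CD-1 in which the Uchl1 promoter drives EGFP. All groups received bis-(dichloroacetyl)-diamine by mouth, which blocks the synthesis of retinoic acid (RA), at 100 µg/g of body weight from postnatal day 1, and testes of at least 5 pups of a litter were pooled for a preparation. The 3 groups were undifferentiated spermatogonia (Aal, 2 libraries), type A1 differentiating spermatogonia (A1, 3 libraries) and type A3 differentiating spermatogonia (A3, 3 libraries). Differentiation was started on day 11 with RA, injected once under the skin in a volume of 10 µl (10 µg/µl). Per the study, the inhibitor was given daily through day 10, and testes on day 11 held undifferentiated spermatogonia before the injection. If the Aal cells were taken then, A1 and A3 differ from Aal in RA exposure and age as well as in stage. These cannot be told apart here. The design text places A1 cells on the day after the injection, and the labels give no age for the A3 cells. Per the study's methods, RNA came from separate cell preparations in each group, and the labels do not tie a library to a litter, so the p-values below measure the spread between these preparations.

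Library depth, recovered from the steps between low values, was 18276164 to 27316451 reads, and the 5736 genes held 34.0% to 34.4% of each library. The germ cell gene Dazl was at 303 to 437 FPKM and Uchl1 at 4048 to 7270 FPKM. Cells were sorted on EGFP driven by the Uchl1 promoter, so the level of Uchl1 does not measure purity. Markers of undifferentiated spermatogonia (11 of 18 listed genes in the table) summed to 402 and 448 FPKM in Aal, 110 to 165 in A1 and 102 to 111 in A3. Sox3 of this list was at 36.6 and 33.2 FPKM in Aal and 41.9, 47.0 and 33.0 in A1. Markers of differentiating spermatogonia (4 of 6 in the table) summed to 108 and 108 FPKM in Aal, 188 to 202 in A1 and 164 to 179 in A3. Ccnd2 of that list was lower in A3 (18.1 to 18.3 FPKM) than in Aal (42.2 and 39.2). Sertoli cell markers (12 of 22 in the table) summed to 62.1 and 44.3 FPKM in Aal, 71.4, 73.4 and 493 in A1, and 475, 356 and 257 in A3. A1 replicate 3 and the 3 A3 libraries thus lay above the other 4. The part of this difference in the results was not tested, except that counts without A1 replicate 3 are given.

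A ribosome is built from a small subunit, which reads the mRNA, and a large subunit, which joins amino acids. Initiation factors bring the small subunit and the initiator tRNA to the start codon, elongation factors move the ribosome along, and tRNA synthetases charge each tRNA with its amino acid. Ribosomal proteins are needed in nearly equal amounts, and their mRNAs are among the most abundant in a growing cell. In mammals these mRNAs and those of several elongation factors begin with an unbroken run of pyrimidines (C and T in the gene), the terminal oligopyrimidine tract, through which mTOR signaling controls their translation. In the testis, the passage from stem and progenitor spermatogonia to differentiating cells is known to come with more protein synthesis.

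The start regions of some of these genes are printed here because the sequence at the start is what most ribosomal protein genes have in common beyond their names. RefSeq start sites (GRCm38.p6) were matched for 46 of the 60 genes. Each line below runs 5′ to 3′ on the strand of the gene, from 10 bases before the annotated start through the first 20 bases, and the longest run of C and T letters is in capitals. Rpl15, Rpl35, Rpl13a, Rps10, Rps6 and Rps15a fell from Aal to A1, Rpl27a and Rpl24 did not pass that test, and Rpl22l1, Eif1ax and Eef2 are described below as genes outside the core ribosomal proteins that passed.
Rpl15, chr14:18270967-18270996, minus strand: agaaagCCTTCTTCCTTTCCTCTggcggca
Rpl35, chr2:39005112-39005141, minus strand: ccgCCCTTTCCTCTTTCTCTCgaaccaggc
Rpl13a, chr7:45128726-45128755, minus strand: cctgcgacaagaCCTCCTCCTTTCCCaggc
Rps10, chr17:27635225-27635254, minus strand: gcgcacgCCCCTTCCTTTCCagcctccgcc
Rps6, chr4:86857348-86857377, minus strand: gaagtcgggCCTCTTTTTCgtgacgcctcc
Rps15a, chr7:118116128-118116157, minus strand: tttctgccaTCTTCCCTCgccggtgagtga
Rpl27a, chr7:109519185-109519214, plus strand: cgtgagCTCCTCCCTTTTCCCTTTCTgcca
Rpl24, chr16:55966265-55966294, plus strand: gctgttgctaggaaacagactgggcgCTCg
Eef2, chr10:81176621-81176650, plus strand: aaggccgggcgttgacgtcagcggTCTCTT
Rpl22l1, chr3:28805498-28805527, plus strand: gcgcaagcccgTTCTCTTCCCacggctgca
Eif1ax, chrX:159372168-159372197, plus strand: ggaggagggcggggagaagCCCCgcccgct

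In the lines above the run was 17 letters in Rpl15, 18 in Rpl35, 14 in Rpl13a and 20 in Rpl27a, against 3 in Rpl24 and 4 in Eif1ax. Among genes that fell but are not printed, Rpl37 and Rps15 had 3, Rps7 and Rpsa 5, Rpl6 6 and Rpl18 10. Among those that did not pass, Rps18 had 11, Rplp2 10, Rps13 and Rps2 6 and Rps25 4. Long and short runs thus occurred in both. These lengths count only letters from 10 bases before the annotated start through the first 20 bases. A run that reaches the edge of that stretch, as in Eef2, is cut there, and a start annotated elsewhere would change the lengths. A run of at least 8 such letters within 10 bases before to 40 bases after the start was present in 17 of 21 matched ribosomal protein genes (81.0%), in 6 of the 25 other matched genes, and in 19.9% of 27025 RefSeq genes. Among ribosomal protein genes it was found in 12 of the 13 matched genes that fell from Aal to A1 and in 5 of the 8 matched genes that did not pass. That window reaches further into the transcript than the printed lines, so a run counted there need not lie at the start. The letters CCGGAAG, a core sequence of ETS family binding sites, were found on either strand of the 300 bases around the start in 61.9% of matched ribosomal protein genes and in 9.93% of all RefSeq genes. The TATA box letters TATAAA were found in 4.76% and 15.7%, and the E-box letters CACGTG in 4.76% and 8.09%, respectively. These are matches of letters and not measured binding sites.

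Values are FPKM, fragments per kilobase of gene, scaled to the reads of the library. Differences were tested as log2(FPKM + 1) with limma, for each pair of groups on the libraries of that pair, and a gene is said to have passed, risen or fallen where the Benjamini-Hochberg adjusted p over all genes tested was at most 0.01. From Aal to A1, 23 of the 60 genes passed, 20 lower and 3 higher. Of all 4632 genes tested in that comparison 27.0% passed, 14.0% lower and 13.0% higher. The share of the 60 genes that fell was 33.3% and the share that rose was 5.0%. The libraries of the 2 groups did not overlap in 43 of the 60 genes, beside 64.0% of all genes tested. The number of genes that passed was 14 without A1 replicate 2, 12 without Aal replicate 1 and 8 without Aal replicate 2, and the comparison has only these 2 Aal libraries.

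Most of the genes that fell encode the ribosome itself. Of 27 cytosolic ribosomal protein genes, 16 fell from Aal to A1 and 0 rose by limma (17 and 0 at an unadjusted p under 0.05, and 17 and 0 by voom on the recovered reads). The proteins of both subunits took part, with 7 of 12 genes of the small subunit (Rps6, Rps7, Rps10, Rps14, Rps15, Rps15a and Rpsa) and 9 of 15 of the large subunit (Rpl3, Rpl6, Rpl10a, Rpl13a, Rpl15, Rpl17, Rpl18, Rpl35 and Rpl37). The median log2 fold change of the 27 genes was -0.62, beside 0.03 for all genes tested. The 16 genes lay close together, from -0.88 to -0.58 on the log2 scale, and their mean FPKM dropped by 33.2% to 45.5%. All 16 stayed below 0 in every setting tried, but the size depended on scaling. Under quantile scaling the median of the 27 genes was -0.24 and 11 fell. Rpl3, Rpl6, Rpl10a, Rpl15 and Rps6 passed in every setting, those with 1 library left out included. No ribosomal protein gene changed by more than 1 on the log2 scale, a size that 9.15% of all genes passed with. The number of ribosomal protein genes that fell was 15 without A1 replicate 3, 8 without A1 replicate 2, 8 without Aal replicate 1 and 6 without Aal replicate 2.

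Summed over genes, the 27 ribosomal protein genes reached 17332 and 17560 FPKM in the 2 Aal libraries, 13501, 12478 and 11042 in A1, and 12298, 12243 and 12788 in A3. Every A1 and A3 library lay below both Aal libraries, and the A1 and A3 libraries overlapped. The group values were 17446 ± 161 (SD, n = 2), 12340 ± 1235 (SD, n = 3) and 12443 ± 300 (SD, n = 3) FPKM. The lowest A1 sum was that of replicate 3, which also had the highest Sertoli cell sum of its group. As a share of all reads of the library, these genes took 1.49% to 1.54% in Aal, 0.945% to 1.13% in A1 and 1.04% to 1.08% in A3. In bulk RNA a lower share cannot be told apart from more RNA of other kinds per cell, or from a different mix of cells.

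**Figure D1:**
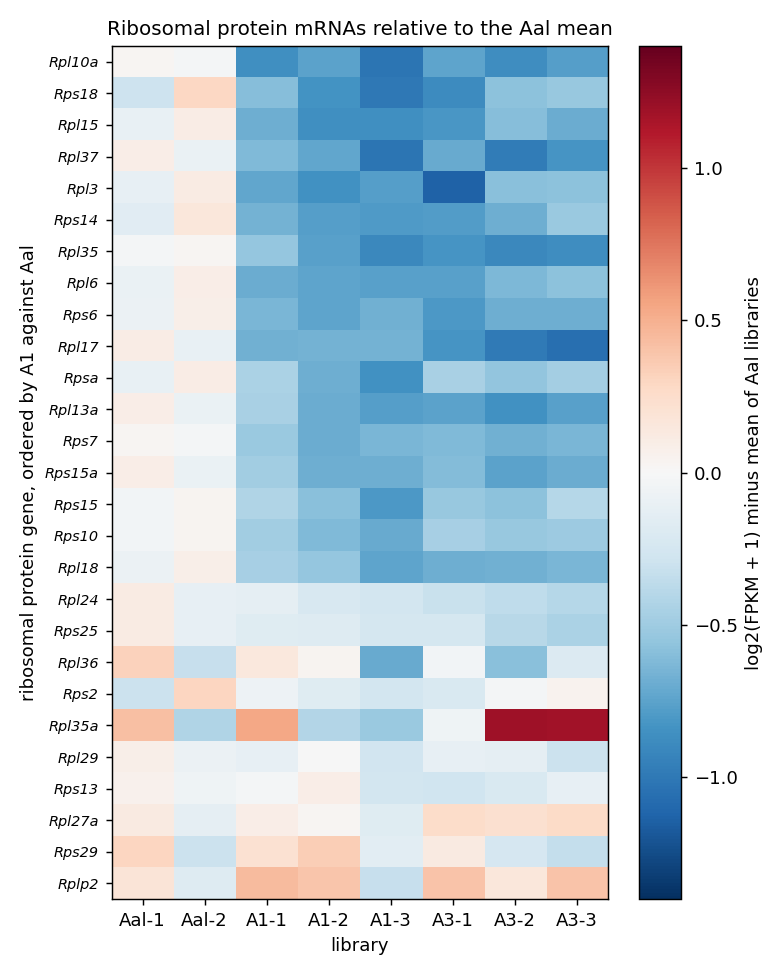
Each row is 1 of the 27 cytosolic ribosomal protein genes and each column 1 library, with color giving log2(FPKM + 1) minus the mean of the 2 Aal libraries. Rows are ordered by the difference between A1 and Aal, and the upper rows, down to Rpl18, are lower in all 3 A1 and all 3 A3 libraries while most rows below them lie nearer the Aal mean or vary among libraries of 1 group, as Rpl35a does. Rpl24 is below both Aal libraries in all 3 A3 libraries.

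Rpl10a, a protein of the large subunit next to the site where tRNAs leave, showed the deepest fall of the core ribosomal proteins. It is on chromosome 17 (mm9, chr17:28465416-28467977, plus strand) and was at 673 and 643 FPKM in Aal, at 362, 389 and 323 in A1, and at 394, 360 and 385 in A3. Both Aal libraries lay above all 6 others, and A1 and A3 overlapped. The log2 fold change from Aal to A1 was -0.88 ± 0.10 (SE; limma adjusted p = 0.000543).

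Rpl15 was at 183 and 211 FPKM in Aal, 122, 108 and 108 in A1, and 111, 130 and 121 in A3, and its log2 fold change from Aal to A1 was -0.80 ± 0.09 (SE; limma adjusted p = 0.000543). Rpl3, which lies at the peptidyl transferase center of the large subunit, was at 426 and 500 FPKM in Aal, 277, 256 and 270 in A1, and 210, 308 and 310 in A3. In both genes the Aal libraries lay above all others. Rpl3 fell by 0.78 ± 0.09 (SE) on the log2 scale from Aal to A1 (limma adjusted p = 0.000611).

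Rps6, the small subunit protein that S6 kinases phosphorylate when mTOR is active, was at 608 and 678 FPKM in Aal, 413, 383 and 403 in A1, and 367, 400 and 400 in A3. Its log2 fold change from Aal to A1 was -0.68 ± 0.09 (SE; limma adjusted p = 0.000892). Rpsa, which is also a laminin receptor, was at 1112 and 1282 FPKM in Aal, 879, 744 and 666 in A1, and 872, 811 and 860 in A3. Rps15 was at 1119 and 1182 FPKM in Aal, 857, 765 and 657 in A1, and 799, 772 and 872 in A3. Rpsa and Rps15 had the highest mean FPKM over all 8 libraries among ribosomal protein genes, and their limma adjusted p-values of 0.00915 and 0.00902 were the highest of the 16. Both calls were lost without A1 replicate 2, A1 replicate 3 or either Aal library, with no filter on low values, without the mean-variance trend, under the replicate block and under quantile scaling, where the log2 fold changes were -0.14 and -0.09. Rpsa passed in 7 and Rps15 in 8 of 16 alternatives.

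The other 11 ribosomal protein genes did not pass from Aal to A1. Rps18 was at 806 and 1202 FPKM in Aal and at 649, 550 and 491 in A1. Its log2 fold change of -0.81 ± 0.19 (SE; limma adjusted p = 0.0121) was as large as that of the genes that fell, and its 2 Aal libraries differed by more than those of most. The other 10 had log2 fold changes between -0.20 and 0.17, so that no gene lay between -0.58 and -0.20. They were Rpl24, Rpl27a, Rpl29, Rpl35a, Rpl36, Rplp2, Rps2, Rps13, Rps25 and Rps29.

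For Rpl24, which connects the subunits, the values were 415 and 351 FPKM in Aal and 350, 326 and 320 in A1, and the 95% interval of the log2 fold change ran from -0.42 to 0.02. The interval of Rpl27a ran from -0.27 to 0.24 and that of Rps13 from -0.32 to 0.19, so a fall as deep as those of the 16 genes lies outside all 3 intervals. The intervals of Rps2, Rps29, Rpl36, Rplp2 and Rpl35a were wider, and their libraries differed more within groups. Rplp2, a protein of the stalk that recruits elongation factors, was at 780 and 603 FPKM in Aal and 932, 898 and 549 in A1.

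The genes that fell and those that did not were alike in subunit, with 7 of 16 and 5 of 11 from the small subunit. The median gene length implied by the table was 914 bases for the 16 genes and 597 for the other 11, and the median Aal level was 765 and 383 FPKM. Removing the trend of each library against gene length left 17 genes that fell. Ribosomal protein genes have many processed pseudogenes, and reads that match a copy can be lost or misplaced. Windows of 75 bases were taken along the annotated transcript of each gene with the most exonic bases. That transcript can differ from the mRNA behind the FPKM. Rpl24 had 4925 windows beside an implied length of 679 bases, so the shares depend on this choice. Of all such windows, a median of 31.5% occurred elsewhere in mm9 for the 16 genes and 26.9% for the other 11. Of the 5 genes with under 10% of windows elsewhere, Rpl13a and Rps15a fell and Rpl24, Rpl27a and Rpl35a did not pass. Of the 14 genes with 10% to 50%, 9 fell, and of the 8 genes with at least 50%, 5 fell. The median log2 fold changes of these groups were -0.20, -0.63 and -0.64, in that order. A relation to repeated sequence was not tested. How the counting treated reads with several matches is not stated, so single levels of genes such as Rpl3 (89.0% of windows elsewhere), Rpl36 (85.2%) and Rpl17 (84.2%) are uncertain.

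**Figure D2:**
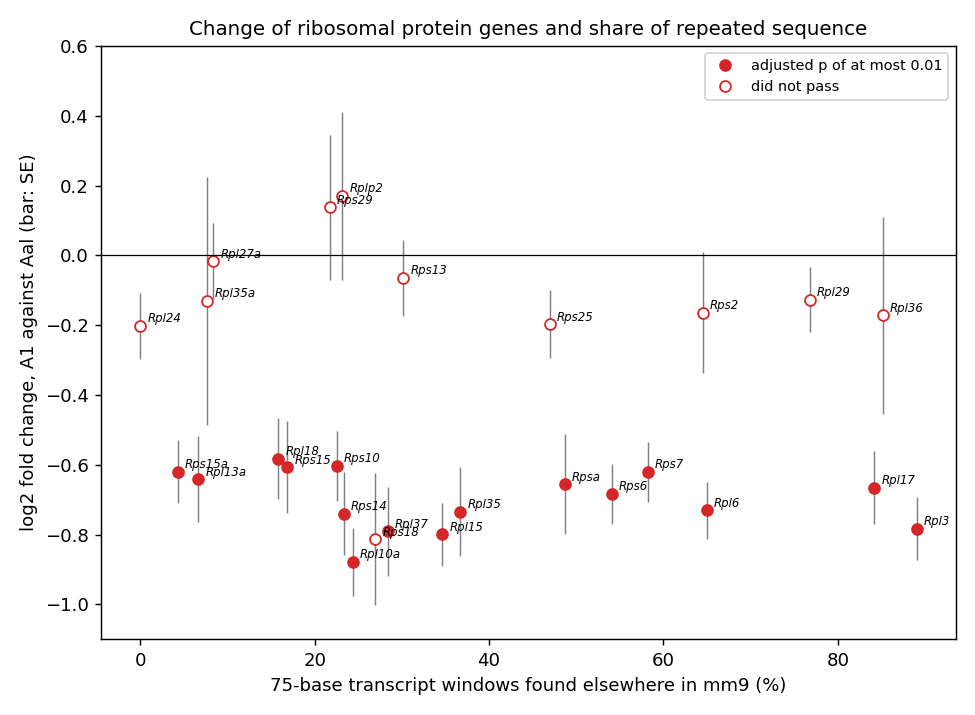
Each point is 1 of the 27 ribosomal protein genes. The x axis gives the share of 75-base windows of the longest annotated transcript that were found elsewhere in mm9 (%). The y axis gives the log2 fold change of A1 against Aal, with bars for SE and filled points for an adjusted p of at most 0.01. Filled points form a band from -0.88 to -0.58 that holds 2 of the 5 genes with a share under 10%. All open points but Rps18 lie at -0.20 or above.

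Levels can be compared between genes per kilobase of the length the table implies. That length was 5134 bases for Rps15a, beside 390 to 1861 for the other ribosomal protein genes. FPKM divides reads by length, and the FPKM of Rps15a was low (129 and 113 in Aal). Whether the length alone accounts for the low level of Rps15a was not tested. Its fall of 35.2% from Aal to A1 does not depend on the length. Many of these genes hold small nucleolar RNAs in their introns or overlap a neighbor, among them Rpl13a, which overlaps Flt3l on the same strand, and Rpl35a, which overlaps Gm17106.

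Rpl22l1, a paralog of Rpl22 that can take its place in the large subunit, fell more than any core ribosomal protein. Its gene is at chr3:28704358-28706274 (mm9, plus strand). It was at 130 and 121 FPKM in Aal, 50.7, 50.2 and 55.8 in A1, and 29.1, 32.0 and 28.4 in A3. No library of a group reached the range of another group, and each step went down. The log2 fold change was -1.25 ± 0.07 (SE; limma adjusted p = 0.000127) from Aal to A1 and -0.79 ± 0.07 (SE; limma adjusted p = 0.000839) from A1 to A3. From Aal to A3 it was -2.04 ± 0.08 (SE; limma adjusted p = 3.13e-06), and the mean FPKM dropped by 76.3%. These 3 calls held in every setting tried. Of its transcript windows 57.1% occur elsewhere in mm9, so reads may be shared with copies, and Rpl22 was not analysed here.

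Among the 60 genes, Rpl22l1 and Eif1ax were the only genes past 1 on the log2 scale from Aal to A1, and their starts differ. The 100 bases before the RefSeq start are printed for both (GRCm38.p6, plus strands, 5′ to 3′), with the overlapping matches of TATAAA in Rpl22l1, 1 on each strand, in capitals and no match in Eif1ax.
Rpl22l1, chr3:28805408-28805507: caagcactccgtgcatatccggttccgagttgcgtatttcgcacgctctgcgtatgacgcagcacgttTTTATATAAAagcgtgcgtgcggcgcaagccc
Eif1ax, chrX:159372078-159372177: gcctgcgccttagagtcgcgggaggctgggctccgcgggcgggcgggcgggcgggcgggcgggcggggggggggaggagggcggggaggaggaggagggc

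The other paralogs and copies did not all move the same way. Rpl37rt, a retrotransposed copy of Rpl37, was at 27.5 and 39.9 FPKM in Aal and at 16.5, 18.4 and 18.5 in A1, and fell by 0.86 ± 0.15 (SE) on the log2 scale (limma adjusted p = 0.00316, lost without Aal replicate 2). Its parent Rpl37 was at 470 and 415 FPKM in Aal and 287, 266 and 217 in A1. Rpl3l, the muscle paralog of Rpl3, rose from 1.57 ± 0.53 FPKM (SD, n = 2) in Aal to 4.34, 3.37 and 3.50 in A1, by 0.89 ± 0.17 (SE) on the log2 scale (limma adjusted p = 0.00564), while Rpl3 itself fell to 277 FPKM or lower. The call of Rpl3l was lost when either Aal library, A1 replicate 1 or A1 replicate 2 was left out. Rpl7l1, a paralog of Rpl7 that works in assembly of the large subunit, was at 39.5 and 36.0 FPKM in Aal, 44.9, 49.0 and 47.9 in A1, and 63.0, 54.5 and 57.2 in A3. It did not pass in either single step (limma adjusted p = 0.0103 and 0.0223) and rose by 0.61 ± 0.08 (SE) from Aal to A3 (limma adjusted p = 0.000417). Rps19bp1, which binds the small subunit protein Rps19, and Rpl14-ps1, a pseudogene, passed in no comparison.

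**Figure D3:**
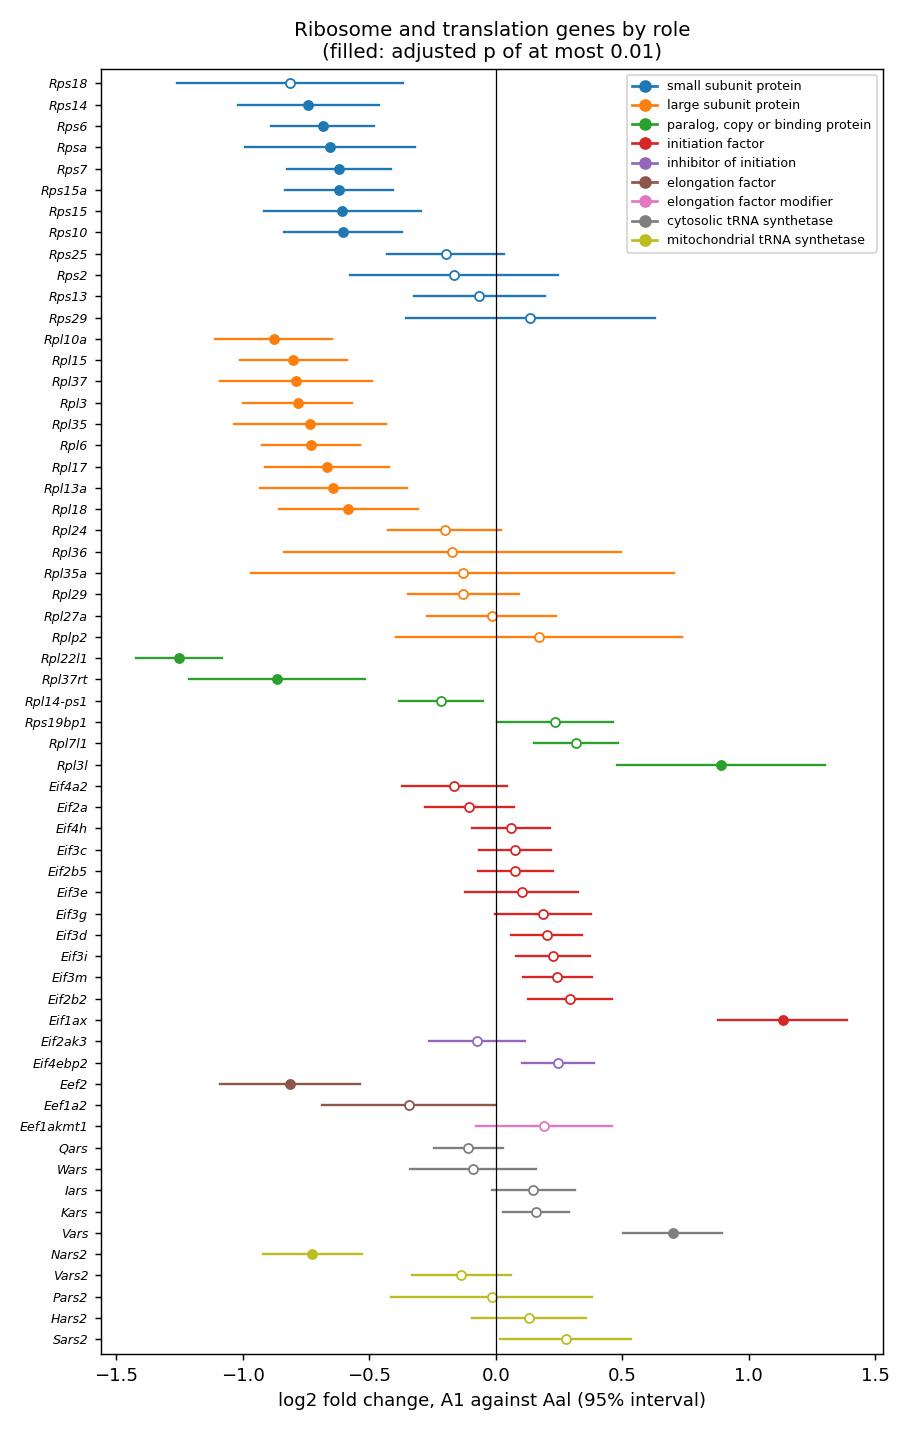
Points give the log2 fold change of A1 against Aal for each of the 60 genes, grouped and colored by role, with 95% intervals, and filled points have an adjusted p of at most 0.01. Ribosomal proteins of both subunits split into a group below -0.58 and a group from -0.20 to 0.17, initiation factors lie from -0.16 to 0.29 with Eif1ax apart at 1.13, and Rpl22l1 has the lowest value of all, -1.25.

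Of 12 initiation factors measured, 1 rose and 0 fell from Aal to A1 by limma (5 and 0 at an unadjusted p under 0.05, 1 and 0 by voom), with a median log2 fold change of 0.14. The share that rose was 8.33%, beside 13.0% of all genes. In Aal their levels summed to 1217 ± 22.9 FPKM (SD, n = 2). In A1 the sum was 1425 ± 8.84 FPKM (SD, n = 3), and in A3 it was 1490 ± 36.0 FPKM (SD, n = 3). From Aal to A3, 4 of the 12 rose and 0 fell, where 43.7% of all genes passed, 21.9% higher and 21.8% lower.

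Eif1ax, the X-linked gene for eIF1A, a factor that helps the small subunit scan for the start codon, was the gene that rose (mm9, chrX:155810110-155827860, plus strand). It was at 84.7 and 65.8 FPKM in Aal, 156, 170 and 169 in A1, and 158, 146 and 138 in A3. Both Aal libraries lay below all others, and A1 and A3 overlapped. The log2 fold change was 1.13 ± 0.11 (SE; limma adjusted p = 0.000336) from Aal to A1 and 0.97 ± 0.11 (SE; limma adjusted p = 0.000171) from Aal to A3, and both calls held in every setting tried. None of its transcript windows occurs elsewhere in mm9.

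The eIF3 complex, the largest initiation factor, holds the small subunit open for the mRNA. All 6 subunits measured (Eif3c, Eif3d, Eif3e, Eif3g, Eif3i and Eif3m) had log2 fold changes above 0 from Aal to A1, from 0.08 to 0.24, and 0 passed by limma or by voom (3 had an unadjusted p under 0.05). Eif3m was at 69.2 and 66.9 FPKM in Aal, 78.3, 81.3 and 82.5 in A1, and 93.0, 96.7 and 102 in A3. Its 3 groups did not overlap, but the single steps missed the threshold (limma adjusted p = 0.0130 and 0.0138), and the rise from Aal to A3 was 0.51 ± 0.07 (SE; limma adjusted p = 0.000368). Eif3d and Eif3g also rose from Aal to A3, by 0.39 ± 0.08 and 0.29 ± 0.07 (SE) on the log2 scale. Eif3c, Eif3e and Eif3i did not pass.

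Of the other initiation factors, Eif2b2 and Eif2b5, subunits of the complex that reloads eIF2 with GTP, did not pass in any comparison. Nor did Eif2a, Eif4a2, an RNA helicase, or Eif4h, which assists that helicase. Eif4a2 was at 67.6 and 67.3 FPKM in Aal, 61.2, 53.9 and 65.8 in A1, and 61.6, 68.4 and 66.6 in A3. The 2 inhibitors of initiation did not pass either. Eif2ak3 (PERK), the kinase that blocks initiation during stress of the endoplasmic reticulum, was at 14.9 and 14.1 FPKM in Aal and 13.2 to 15.2 in all later libraries. Eif4ebp2, which holds the cap-binding protein until mTOR releases it, was at 72.9 and 71.7 FPKM in Aal, 83.3, 89.9 and 85.0 in A1, and 89.2 ± 6.93 (SD, n = 3) in A3. Every later library lay above both Aal libraries, and the log2 fold changes of 0.25 and 0.30 against Aal missed the threshold (limma adjusted p = 0.0145 and 0.0123).

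The elongation factor Eef2, which moves the ribosome by 1 codon after each bond, fell as well. It was among the most abundant of the 60 mRNAs (mm9, chr10:80639376-80645252, plus strand). Its level was 1334 and 1371 FPKM in Aal, 842, 782 and 690 in A1, and 735, 730 and 831 in A3. Both Aal libraries lay above all others by a wide gap. The log2 fold change was -0.81 ± 0.12 (SE; limma adjusted p = 0.00152) from Aal to A1 and -0.82 ± 0.10 (SE; limma adjusted p = 0.000234) from Aal to A3. The first call was lost without Aal replicate 1 or Aal replicate 2 and under quantile scaling, where the fall was 0.27 on the log2 scale. Its windows were nearly unique, with 3.34% found elsewhere.

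Eef1a2, the form of the tRNA-delivering factor found in muscle and neurons, was close to the filter of 1 FPKM, at 1.42 and 1.25 FPKM in Aal, 0.824, 1.07 and 0.642 in A1, and 0.387, 0.678 and 0.523 in A3. It was left out of the comparison of A3 with A1 by the filter on low values. From Aal to A3 it fell by 0.61 ± 0.13 (SE) on the log2 scale (limma adjusted p = 0.00445). That call was lost without A3 replicate 3 and under the replicate block, with or without the length trend removed. It held in 10 of the 13 alternatives in which the gene was tested. Eef1a1 was not analysed here. Eef1akmt1, a lysine methyltransferase of eEF1A, passed in no comparison.

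**Figure D4:**
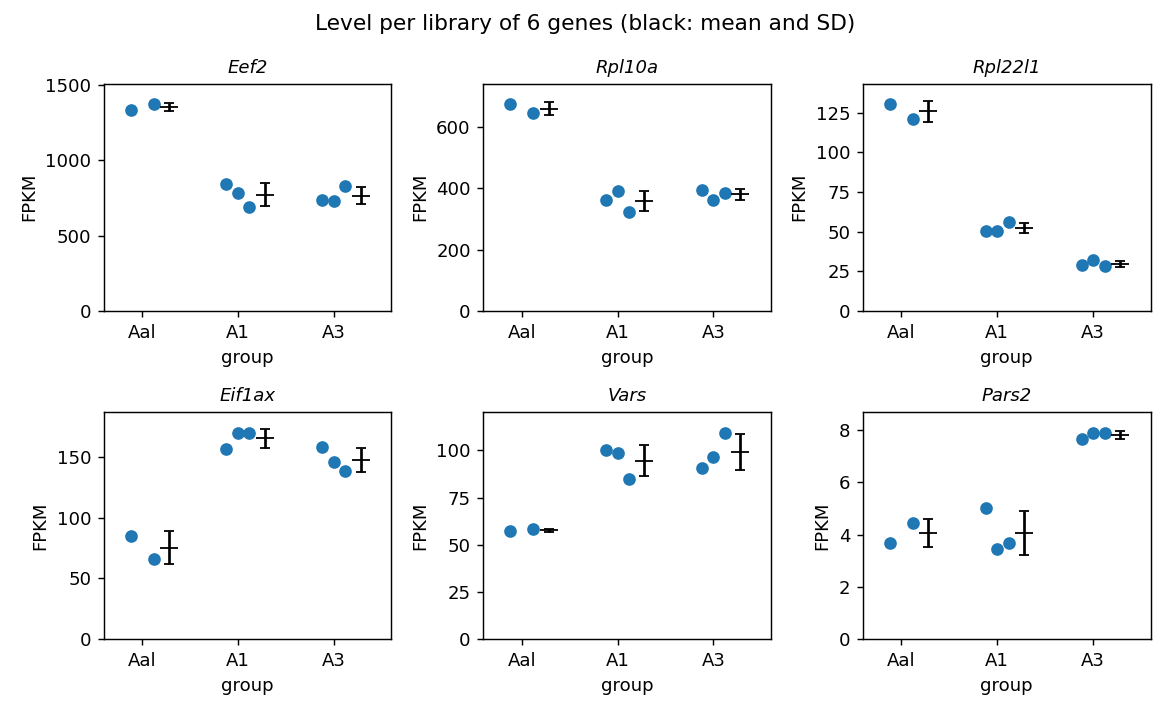
Each panel gives the FPKM of 1 gene (y axis, from 0) in every library of Aal, A1 and A3 (blue points), with the group mean and SD in black. Eef2, Rpl10a, Eif1ax and Vars change from Aal to A1 and then overlap between A1 and A3, Rpl22l1 drops at both steps, and Pars2 is at 7.64 to 7.90 FPKM in A3 and 5.02 or lower in all other libraries.

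Of the 5 cytosolic tRNA synthetases, Vars, the valyl enzyme, rose from Aal to A1. It was at 57.2 and 58.2 FPKM in Aal, 99.9, 98.7 and 84.9 in A1, and 90.7, 96.6 and 109 in A3. Both Aal libraries lay below all others. The log2 fold change from Aal to A1 was 0.70 ± 0.08 (SE; limma adjusted p = 0.000661, lost without either Aal library). Kars, the lysyl enzyme, was at 76.4 and 75.6 FPKM in Aal, 85.0, 86.7 and 83.4 in A1, and 101 to 105 in A3, and its groups did not overlap. It passed from A1 to A3 at 0.27 ± 0.05 (SE; limma adjusted p = 0.00716) and from Aal to A3 at 0.43 ± 0.06 (SE; limma adjusted p = 0.000506). The call of Kars from A1 to A3 was lost in most alternatives, as given below. Iars, Qars and Wars, for isoleucine, glutamine and tryptophan, passed in no comparison.

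The mitochondrial synthetases moved in different directions. Nars2, for asparagine, was at 16.0 and 16.5 FPKM in Aal, 9.55, 9.58 and 9.15 in A1, and 8.55, 8.19 and 7.39 in A3. It fell by 0.72 ± 0.08 (SE) on the log2 scale from Aal to A1 (limma adjusted p = 0.000591) and by 0.93 ± 0.10 (SE) from Aal to A3 (limma adjusted p = 0.000145). Pars2, for proline, stayed between 3.47 and 5.02 FPKM in Aal and A1 and reached 7.64, 7.88 and 7.90 in A3. Its rise from A1 to A3 was 0.82 ± 0.13 (SE) on the log2 scale (limma adjusted p = 0.00588). That call was lost in several alternatives, as given below. Sars2, for serine, rose by 0.49 ± 0.10 (SE) from Aal to A3 (limma adjusted p = 0.00293), and Vars2 and Hars2 passed in no comparison.

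Few of the genes passed from A1 to A3. Of 59 genes tested, 3 passed, beside 7.6% of all 4590 genes tested (2.16% higher and 5.45% lower), and 14 did not overlap between the groups, beside 38.1%. The 3 genes were Rpl22l1, lower, and Pars2 and Kars, higher. The calls of Kars and Pars2 were lost without A1 replicate 2, A1 replicate 3, or any single A3 library. Both were also lost under the replicate block, with or without the length trend removed. That of Kars was lost as well without A1 replicate 1, with the length trend removed, without the mean-variance trend and under quantile scaling. Kars passed in 6 and Pars2 in 10 of 17 alternatives. Of the 27 ribosomal protein genes 0 passed by limma and 0 by voom, 3 had an unadjusted p under 0.05 (1 higher and 2 lower), and 1 passed lower when A3 replicate 1 was left out. Their median log2 fold change was -0.02, beside 0.01 for all genes tested. The largest difference was that of Rpl35a, at 354, 183 and 169 FPKM in A1 and 233, 556 and 552 in A3. These libraries overlap, and the log2 fold change of 0.90 ± 0.39 (SE) had a limma adjusted p of 0.149.

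From Aal to A3, 30 of the 60 genes passed, 9 higher and 21 lower, beside 43.7% of all genes tested (21.9% higher and 21.8% lower), and 48 did not overlap between the groups, beside 73.1% of all genes tested. This comparison uses the same Aal libraries as that of A1 with Aal, so the 2 are not independent. Among ribosomal proteins 17 of 27 were lower and 0 higher by limma (20 and 2 at an unadjusted p under 0.05, 19 and 0 by voom), with a median log2 fold change of -0.64 beside 0.05 for all genes tested. Rpl17 fell by 0.96 ± 0.11 (SE), Rpl35 by 0.87 ± 0.09 and Rpl37 by 0.84 ± 0.10 on the log2 scale. Rpl24 was among the 17, at 308, 299 and 290 FPKM in A3 after 415 and 351 in Aal (limma adjusted p = 0.0094). Rpl22l1 was the only one of the 60 genes with a change above 1 on the log2 scale, a size that 17.6% of all genes passed with.

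Other genes tied to ribosomes and translation were counted in the same way. Mitochondrial ribosomal proteins, which build a separate ribosome, numbered 18, and 2 rose and 0 fell from Aal to A1 by limma (5 and 0 at an unadjusted p under 0.05, 1 and 0 by voom), with a median log2 fold change of 0.17. The share that rose, 11.1%, was near the 13.0% of all genes tested. They were Mrpl22 (0.31 ± 0.06, SE) and Mrps36 (0.68 ± 0.08). Of 27 genes of ribosome biogenesis, 0 rose and 1 fell from Aal to A1 by limma (6 and 1 at an unadjusted p under 0.05, 1 and 1 by voom), and 6 rose and 1 fell from Aal to A3. The 6 are 22.2% of the list, near the 21.9% of all genes that rose. Among them were Nop56, a core protein of the particles that methylate ribosomal RNA, at 106 and 109 FPKM in Aal and 146, 161 and 160 in A3, and the helicase Ddx21, at 68.3 and 53.4 in Aal and 85.0, 90.1 and 88.7 in A3. The gene that fell was Gnl3l, a nucleolar GTPase, from 7.62 and 7.39 FPKM to 4.07, 3.96 and 4.87 in A1 and 2.75, 2.36 and 2.66 in A3.

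Of 6 genes of mTOR signaling, 0 rose and 1, Rragd, fell from Aal to A1, where 13.0% of all genes rose and 14.0% fell. This gene, for a GTPase that tells mTOR of amino acids, was at 22.9 and 25.2 FPKM in Aal, 13.0, 11.7 and 11.4 in A1, and 10.6, 11.2 and 9.67 in A3. Lamtor1 and Lamtor2, which anchor such GTPases on lysosomes, rose from Aal to A3 by 0.50 ± 0.08 and 0.43 ± 0.08 (SE) on the log2 scale. In that comparison 2 of the 6 rose and 1 fell, where 21.9% of all genes rose and 21.8% fell. In the integrated stress response, which lowers initiation when amino acids or folding fail, 10 genes were tested and 3 fell from Aal to A1 (3 by voom also), where 14.0% of all genes fell and 27.0% passed. Trib3, a target of the pathway, fell at each step, from 14.5 and 14.3 FPKM to 5.73, 6.10 and 5.02 and then to 3.42, 3.25 and 3.44. Cebpg, a partner of ATF4, fell by 0.71 ± 0.09 (SE) from Aal to A1. Phgdh, which starts serine synthesis, fell by 0.57 ± 0.08 (SE) from Aal to A1 and rose by 0.65 ± 0.12 (SE) from A1 to A3. The other 7, Ddit3, Chac1, Shmt2, Slc3a2, Slc7a5, Cebpb and Stc2, did not pass from Aal to A1. The median log2 fold change of the 10 genes was -0.03, and Shmt2 rose by 0.34 ± 0.08 (SE) from Aal to A3.

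Of 12 genes of termination, recycling and mRNA binding, 1 rose and 4 fell from Aal to A1 by limma (4 and 5 at an unadjusted p under 0.05, 2 and 4 by voom), where 13.0% of all genes rose and 14.0% fell. Gspt1, the termination factor eRF3, was at 28.5 and 25.4 FPKM in Aal, 42.1, 44.3 and 43.5 in A1, and 44.1, 44.1 and 40.5 in A3, so that both Aal libraries lay below all others. Its log2 fold change from Aal to A1 was 0.67 ± 0.07 (SE; limma adjusted p = 0.000459). The 4 that fell were Dap, Gtpbp2, a factor that rescues stalled ribosomes, and Nanos2 and Nanos3, translational repressors that are also markers of undifferentiated spermatogonia. Nanos3 was at 91.4 and 112 FPKM in Aal and at 21.7, 12.6 and 12.2 in A1.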

How the data were processed

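RNA of sorted germ cells was sequenced with a stranded mRNA kit. The authors trimmed reads with cutadapt 1.9, aligned them to mm9 with STAR 2.5.2b, counted them with featureCounts, and deposited FPKM values in 1 table with no value of 0. The annotation, the use of strand, the handling of reads with several matches and the step to FPKM are not stated.

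After addition of 1 and log2 transformation, FPKM values went into limma 3.58.1 (R 4.3.3, mean-variance trend), pair by pair. Genes entered a test when at least 2 libraries of the pair had 1 FPKM or more. Tests were two-sided. Fold changes on this scale understate the change of low genes. The genes and lists were chosen with earlier results of these data known. Genes described in detail were the 5 largest rises and falls per comparison with no overlap between groups and at least 5 FPKM, the 3 highest, fixed paralogs and regulators, and changes above 1; others were chosen after their values were seen. Whole reads were recovered for all genes, and they rebuilt the deposited FPKM of 99.8% of genes within a relative 1e-06. The 60 genes had 15 to 106685 reads per library. Replicate libraries differed by a chi-square of 5.81 to 22.3 per gene, so each was kept as 1 sample. On simulated data of 5736 genes at a dispersion of 0.005, 88% of 1.5-fold changes passed from Aal to A1, 96% from A1 to A3 and 90% from Aal to A3. The dispersion was set and not estimated, and only genes with a mean above 5 FPKM were changed. These shares may be too high for the real libraries. Positions and overlaps come from GENCODE M1 (mm9), and start sequences from RefSeq (GRCm38.p6), whose coordinates differ from mm9. Alternatives changed the pseudocount, filter, scaling, threshold, length trend, spread, block and libraries.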

Additional observations from a re-analysis of the deposited data

How the results depend on the processing

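The number of ribosome and translation genes that passed from Aal to A1 (23) ran from 8 to 23 when 1 library was left out, and that of ribosomal proteins that fell (16) from 6 to 15. From Aal to A3 the corresponding ranges were 22 to 34 (30 with all libraries) and 12 to 18 (17), and from A1 to A3 the range was 1 to 2 (3). Leaving out an Aal library leaves 1 sample in that group, which is assumed to vary like the others. The 4 initiation factors that rose from Aal to A3 became 2 with the length trend removed under the replicate block, 2 without the mean-variance trend and 7 at an adjusted p of at most 0.05, with 2 to 5 when 1 library was left out. The 3 genes that passed from A1 to A3 became 8 at an adjusted p of at most 0.05. Quantile scaling, which gives every library the same set of values, moved the median of the ribosomal proteins from Aal to A1 to -0.24 with 11 that fell, and from Aal to A3 to -0.35 with 15 that fell. Otherwise the cause of these moves was not tested.

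With replicate numbers as a block, 22 genes passed from Aal to A1, 1 from A1 to A3 (also 1 with the length trend removed) and 31 from Aal to A3. Deviations of libraries with the same number correlated from -0.323 to 0.045, so the numbers were not taken to pair the libraries. Of 774 values of named genes under alternatives, 696 kept their direction and side of the threshold, 58 no longer passed, 5 newly passed and 15 changed sign, and none that changed sign had passed. Eef2 from A1 to A3 was at 0.0062 with the length trend removed, with or without the block, and at -0.087 to 0.057 with 1 library left out. Rpl3 from A1 to A3 was at -0.0047 with the length trend removed, with or without the block, at -0.041 under quantile scaling and at -0.073 to 0.21 with 1 library left out. Eif2ak3 from Aal to A3 was at -0.024 under median-ratio scaling and -0.017 to 0.063 with 1 library left out, and Eif4a2 at -0.073 to 0.0011. The table holds part of each library's reads, so genes outside it are not described.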
